A study of Mus musculus with 8 samples.

Results

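The DnaJ family was taken as every protein-coding gene of the deposited table whose symbol was Dnaja, Dnajb or Dnajc followed by a number and at most 1 further letter. The rule found 45 genes among 22046 protein-coding genes and 54532 genes in all, with 4 members in subfamily A, 13 in subfamily B and 28 in subfamily C. They lay on 17 chromosomes, and 0 lay on the sex chromosomes. From general knowledge 6 members were listed as testis-enriched (Dnajb3, Dnajb7, Dnajb8, Dnajb13, Dnajc5b and Dnajc5g), 35 as widely expressed, and 4 as genes known mainly from another tissue (Dnajb5, Dnajc6, Dnajc12 and Dnajc22). RNA of whole mouse testes was sequenced in 8 libraries, 4 mice to a group, to ask whether silencing of the sex chromosomes in meiosis was lost when the Y axis stayed synapsed along the X axis. Both groups carried loxP-flanked Spdya alleles (Spdya encodes Speedy A, an activator of CDK2), and in both the meiotic prophase had been synchronized by blocking retinoic acid (RA) synthesis and giving RA at postnatal day 9, called RA0. Both received tamoxifen at RA7.5 and RA8.5, and testes were taken at RA11.5, when mid-late pachytene spermatocytes prevail. The Sync-Spdya fl/fl mice served as controls, and the Sync-Spdya cKO mice carried in addition a tamoxifen-inducible Cre under the Ddx4 promoter, which acts in germ cells and leaves Spdya intact in somatic cells.

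DnaJ proteins, also called Hsp40 or J-domain proteins, are co-chaperones of Hsp70. Their J-domain stimulates the ATPase of an Hsp70, which then closes on a client polypeptide, and the rest of the protein decides which clients and which compartment the Hsp70 serves. Members of subfamilies A and B bind unfolded chains themselves, while subfamily C holds proteins that share little beyond the J-domain. In the testis, spermatocytes use a particular Hsp70, HSPA2, and several DnaJ genes are expressed mainly in germ cells.

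Levels are given as FPKM, a fragment count scaled by exon length and library size, which allows levels of different genes to be compared per length. The libraries held 13978342 to 19583091 fragments on genes. The control library 1 stood apart from the others: mitochondrially encoded genes took 0.464% of its fragments against 2.20% to 3.74% in the 7 other libraries. Spermatocyte markers were abundant in both groups, with a summed level of 558 to 708 FPKM in the controls and 459 to 707 FPKM in the cKO, although 1 of the 6 (Ovol2) was below 1 FPKM. Of 6 spermatid markers 5 (Acrv1, Tnp1, Tnp2, Prm1 and Prm2) were below 1 FPKM, and the whole list summed to 2.52 to 9.56 FPKM in the controls and 4.39 to 6.31 FPKM in the cKO. The whole-gene level of Spdya gave no check of the genotype, at 21.3 ± 1.76 FPKM (SD, n = 4) in the controls and 24.1 ± 5.45 FPKM (SD, n = 4) in the cKO.

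The family spanned a wide range of levels. By the mean over the 8 libraries, 14 members were above 20 FPKM, 18 lay between 5 and 20 FPKM, 8 between 1 and 5 FPKM, and 5 at 1 FPKM or less. The summed level of all members was 775 ± 75.9 FPKM (SD, n = 4) in the controls and 714 ± 49.3 FPKM (SD, n = 4) in the cKO, with overlapping ranges of 697 to 876 FPKM and 675 to 786 FPKM. The 8 most abundant members held between 45.8% and 51.4% of that sum in every library. They were Dnaja2, Dnajc7, Dnajc8, Dnajb3, Dnajc10, Dnajb11, Dnajc3 and Dnaja1, so 1 testis-enriched member stood among 7 widely expressed ones. The plot of levels by library shows this order, with the points of the groups intermingled for most members.

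**Figure D1:**
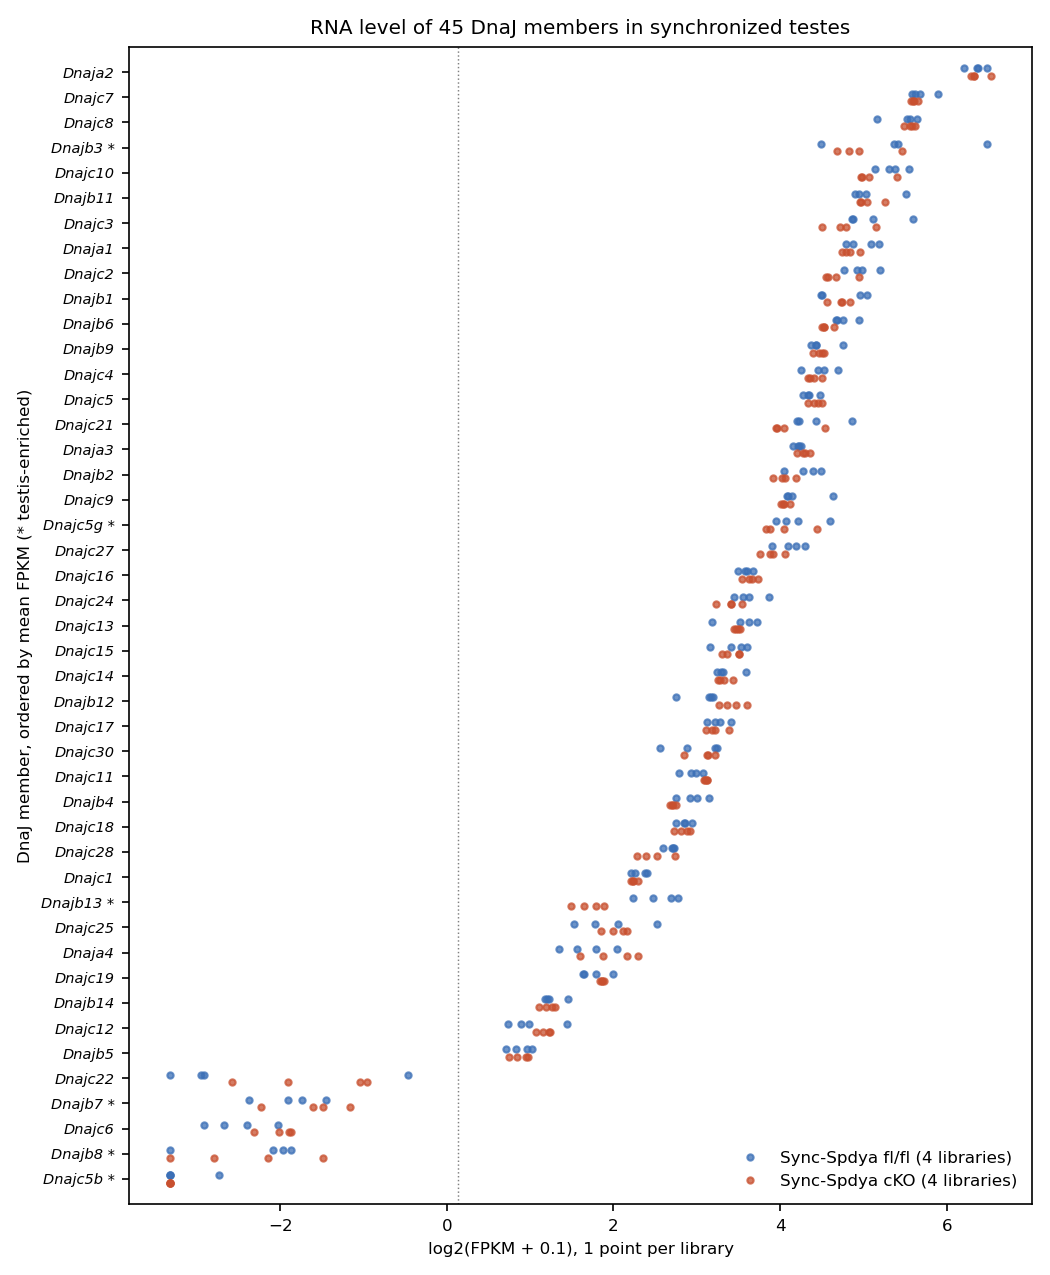
Each row is 1 of the 45 DnaJ members, ordered by mean FPKM, and each point is 1 library on a log2(FPKM + 0.1) axis, blue for the 4 Sync-Spdya fl/fl libraries and orange for the 4 Sync-Spdya cKO libraries. Asterisks mark the 6 testis-enriched members, and the dotted line marks 1 FPKM; the 5 members to its left were not tested, and Dnajb13 is a testis-enriched member whose groups do not overlap.

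No member was called different between the genotypes. In all, 40 members had a mean above 1 FPKM in both groups and were tested with limma among 12141 protein-coding genes, on log2(FPKM + 0.1). A call required an adjusted p below 0.05 and a log2 fold change beyond 1 in either direction. It was met by 0 members and by 2 genes in all (0.0165% of the genes tested). At the same thresholds the paper called more genes, all on autosomes, with DESeq2, a test on read counts. The yield thus depends on the test, and the paper's calls were not compared with the members here. The fold change was above 0 for 12 members (30.0%) and below 0 for 28, where 52.0% of all genes tested were above 0, with a median of -0.04 against 0.01 over all genes tested, and it ran from -0.84 to 0.36. Under a TPM scaling, which sets the FPKM of each library to 1 fixed sum, the family median was 0.04 and that of all genes 0.09, so its sign depended on the scaling while it stayed below the median of all genes. The absolute fold change was under 0.25 on the log2 scale for 32 of the 40 members.

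Without adjustment, 1 member had p below 0.05 with a higher level in the cKO (Dnajb12) against 5.89% of all genes tested, and 3 had a lower level (Dnajb13, Dnajb4 and Dnajc2) against 5.0% of all genes tested. The summed count, 4 of 40 members, stood beside 10.9% of all genes tested. This split depended on the scaling, with 3 members higher and 1 lower under TPM, and 2 higher and 1 lower when libraries were centred on spermatocyte markers. All 4 cKO libraries lay above all 4 control libraries for 2 members (Dnajb12 and Dnajc11), where 3.64% of all genes tested did so. They lay below all controls for 2 members (Dnajb13 and Dnajb6), where 2.59% of all genes tested did so. Without cKO library 1, 9 members (22.5%, of which 8 lower) had an unadjusted p below 0.05 against 12.8% of genes, and 11 (27.5%, of which 9 lower) did not overlap against 15.4% of genes. The counts thus depended on that library, but not on it alone. With all libraries kept and those of the same number paired, 25% of members (9 lower) had an unadjusted p below 0.05. Of all genes tested, 14.6% had such a p in that fit. With all libraries weighted by their quality, it was 22.5% of members (8 lower) against 20.9% of genes. Without cKO library 4 it was 2.5% of members against 5.65% of genes.

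**Figure D2:**
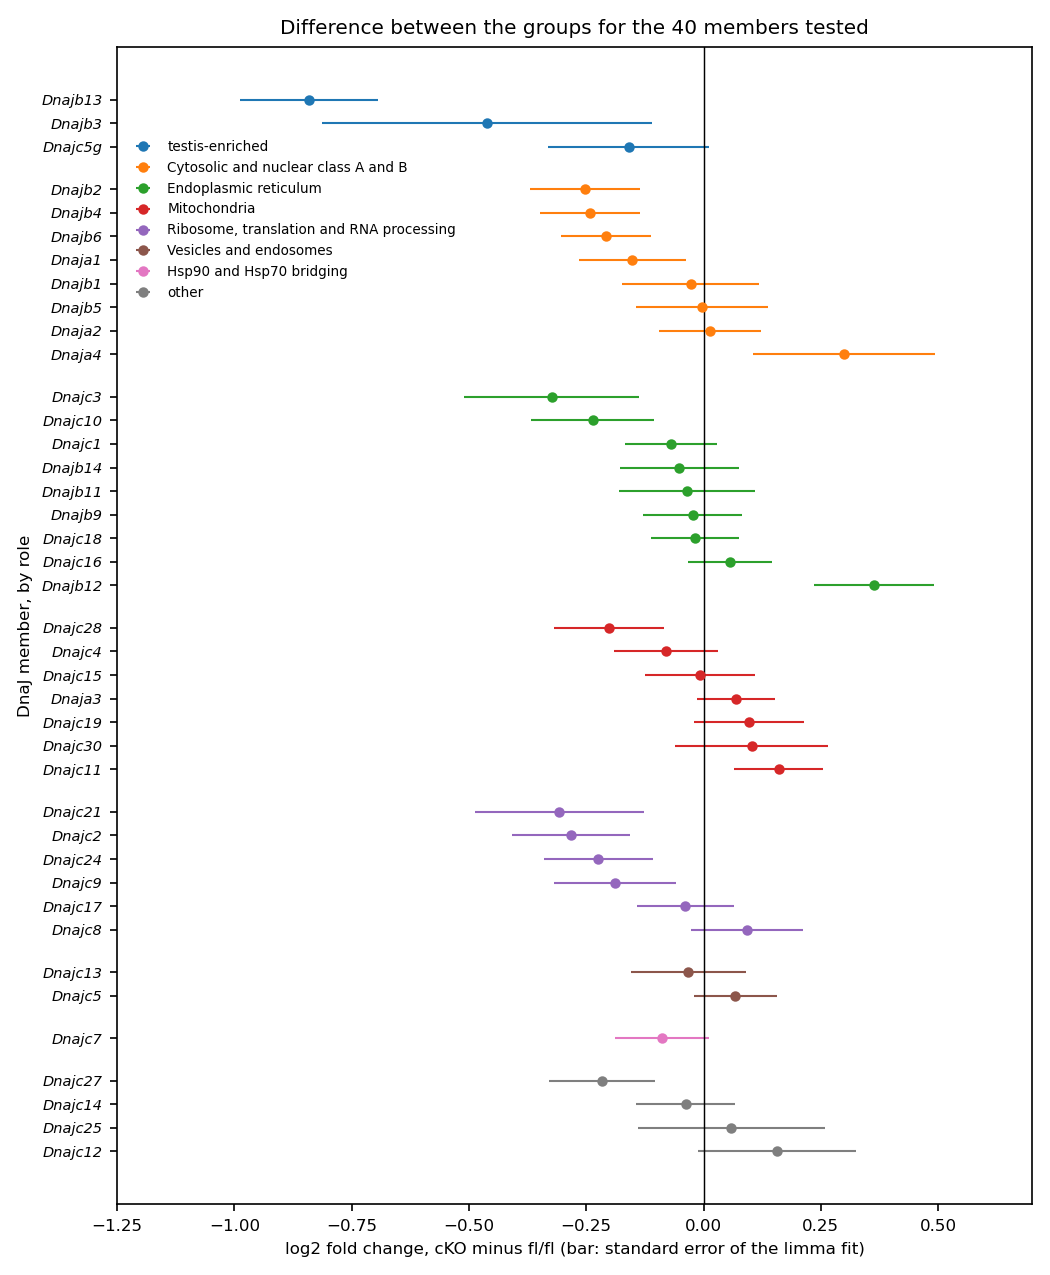
Points give the log2 fold change (cKO minus fl/fl, on log2(FPKM + 0.1)) of each of the 40 tested members, grouped and coloured by role, and bars give its standard error in the limma fit over 4 libraries a group. Dnajb13 lies farthest from 0 at -0.84 and Dnajb12 farthest on the other side at 0.36, while 32 members lie within 0.25 of 0.

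Among the testis-enriched members, Dnajb13 showed the largest difference of the 40 members tested. DNAJB13 is a component of the radial spokes of motile cilia and the sperm flagellum. The gene (ENSMUSG00000030708) lies on the minus strand at chr7:100501716-100514960 (GRCm38). Its level was 6.37, 4.62, 6.77 and 5.45 FPKM in control libraries 1 to 4, and 3.36, 3.60, 2.71 and 3.04 FPKM in cKO libraries 1 to 4. Every cKO library was below every control library. The mean was 5.80 ± 0.960 FPKM (SD, n = 4) in the controls and 3.18 ± 0.385 FPKM (SD, n = 4) in the cKO, a log2 fold change of -0.84 (SE 0.148), or a 44.2% lower level on the scale of the fit. The unadjusted p was 0.000203, which ranked the gene at position 16 of the 12141, and the adjusted p of 0.127 (limma) missed the threshold. The value rested on 125 to 289 fragments a library. Its fold change was -0.79 without control library 1, and ranged from -0.94 to -0.76 when any 1 library was left out. Weighting the libraries by their quality gave an adjusted p of 0.0250 (limma), the single setting of the 20 tried for this gene in which it passed 0.05.

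Part of the Dnajb13 exons cannot be assigned without strand information. It shared 305 of its 2732 exon bases (11.2%) with Ucp2, a mitochondrial carrier gene on the opposite strand. The level of Ucp2 was 9.68, 12.3, 10.6 and 13.2 FPKM in control libraries 1 to 4 and 13.5, 15.3, 14.7 and 18.3 FPKM in cKO libraries 1 to 4. Ucp2 thus differed the other way, without overlap between the groups, with a log2 fold change of 0.43 and an adjusted p of 0.287 (limma). Whether reads of Ucp2 were counted for Dnajb13 was not tested.

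**Figure D3:**
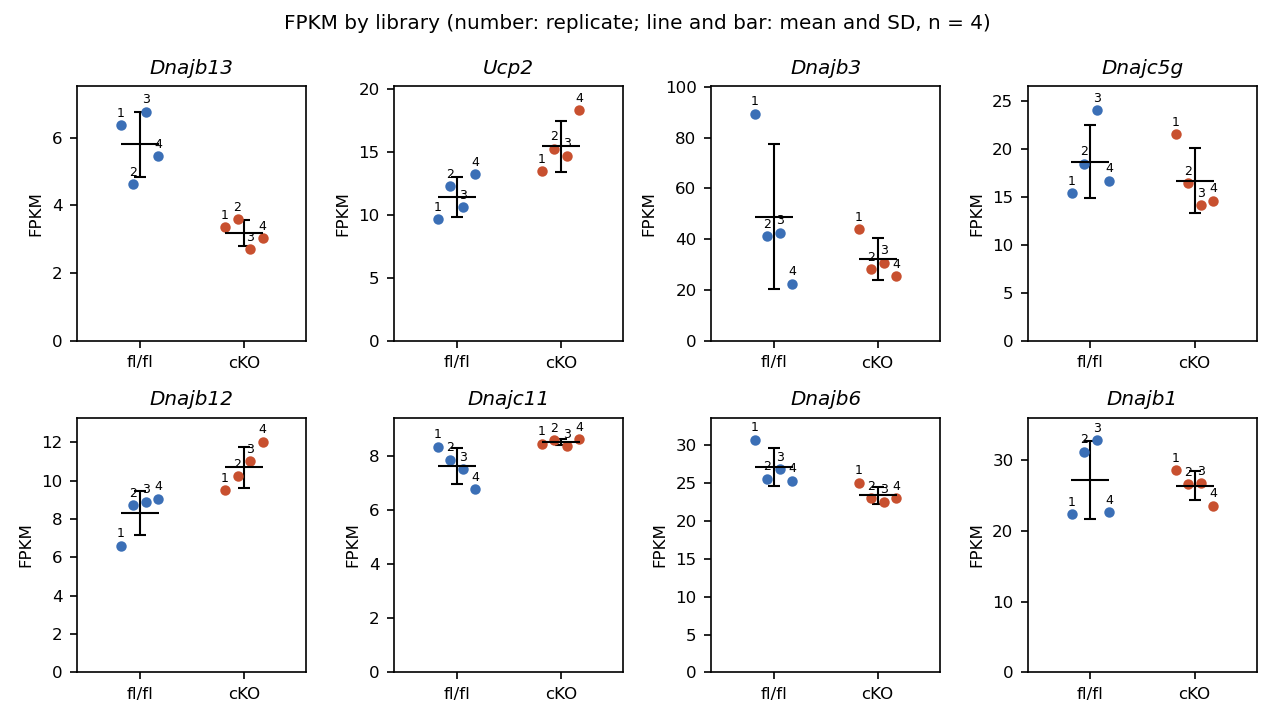
FPKM of 7 DnaJ members and of Ucp2, the opposite-strand neighbour of Dnajb13, with 1 point per library (numbered by replicate), a line for the mean and a bar for the SD of 4 libraries. The groups are separate for Dnajb13, Ucp2, Dnajb12, Dnajc11 and Dnajb6 and overlap for Dnajb3, Dnajc5g and Dnajb1; control library 1 is the high point of Dnajb3 (89.4 FPKM) and the low point of Dnajb12 (6.61 FPKM).

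Dnajb3 was the most abundant testis-enriched member and, of the 3 tested, the one with the widest spread among the controls, with a coefficient of variation of 58.3%. DNAJB3, also known as MSJ-1, is a subfamily B protein of male germ cells. Its level was 89.4, 41.2, 42.5 and 22.5 FPKM in control libraries 1 to 4, and 44.0, 28.3, 30.8 and 25.6 FPKM in cKO libraries 1 to 4. Control library 1 was far above the rest, and control library 4 was below all cKO libraries. The means of 48.9 ± 28.5 FPKM (SD, n = 4) and 32.2 ± 8.19 FPKM (SD, n = 4) therefore differed by less than the spread among the controls, with a log2 fold change of -0.46 (SE 0.352) and an adjusted p of 0.700 (limma). Leaving out 1 control library set the size of this value: it was -0.11 without control library 1 and -0.78 without control library 4.

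Dnajc5g encodes a testis paralogue of the cysteine string protein, which serves Hsp70 on secretory vesicles. Its level was 15.4, 18.5, 24.1 and 16.7 FPKM in control libraries 1 to 4 and 21.6, 16.4, 14.1 and 14.6 FPKM in cKO libraries 1 to 4. The groups overlapped, with a log2 fold change of -0.16 and an adjusted p of 0.792 (limma), and the fold change was -0.03 without control library 3 and -0.29 without cKO library 1. The 3 other testis-enriched genes were hardly detected and were not tested. Dnajb7, of subfamily B, lay between 0.0931 and 0.266 FPKM in the controls and between 0.113 and 0.345 FPKM in the cKO, from 2 to 8 fragments a library. Dnajb8, a subfamily B suppressor of protein aggregation, had 11 fragments over the controls and 11 over the cKO. Dnajc5b, the second cysteine string paralogue, had 1 fragment in control library 3 and 0 in the 7 other libraries, which allows up to 0.123 to 0.182 FPKM in each of them by a limit of 3 fragments (counting error only). By level, the testis-enriched list thus split into 3 members above 3 FPKM in both groups and 3 below 1 FPKM.

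The promoters of these genes differed in their content of CpG dinucleotides. Windows of 250 bases before to 50 bases after a transcription start (RefSeq, GRCm38.p6) were at hand for 37 members, in 50 windows. Their median GC content was 62.5% and their median CpG count 25, against 52.7% and 7 over all 32851 windows. Taking the richest window of each gene, the 5 testis-enriched members matched had 1 to 19 CpG (median 9), and the 30 widely expressed members matched had 7 to 44 (median 29). This is a description of the letters and was not tested. The windows of Dnajb7 (hardly detected, 1 CpG), Dnajb13 (the largest difference, 8 CpG), Dnajb3 (the most abundant testis-enriched member, 19 CpG) and Dnajb12 (widely expressed, 33 CpG) are shown as examples from low to high CpG count. Each is written 5′ to 3′ on the strand of the gene, with CpG in capitals. They are chr15:81408224-81408523 (minus strand) for Dnajb7, chr7:100514766-100515065 (minus strand) for Dnajb13, chr1:88205699-88205998 (minus strand) for Dnajb3 and chr10:59879333-59879632 (plus strand) for Dnajb12.
Dnajb7: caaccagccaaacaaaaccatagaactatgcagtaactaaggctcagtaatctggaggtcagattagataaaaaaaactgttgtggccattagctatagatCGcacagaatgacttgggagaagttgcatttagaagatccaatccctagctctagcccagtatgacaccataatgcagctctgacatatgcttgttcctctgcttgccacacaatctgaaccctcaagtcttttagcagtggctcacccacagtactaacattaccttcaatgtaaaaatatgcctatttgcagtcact
Dnajb13: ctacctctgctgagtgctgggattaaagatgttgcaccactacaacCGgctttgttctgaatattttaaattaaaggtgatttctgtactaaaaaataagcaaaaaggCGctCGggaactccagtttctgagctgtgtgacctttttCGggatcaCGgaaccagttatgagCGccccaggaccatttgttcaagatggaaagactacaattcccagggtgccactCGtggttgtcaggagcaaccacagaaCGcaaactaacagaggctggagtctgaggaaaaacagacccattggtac
Dnajb3: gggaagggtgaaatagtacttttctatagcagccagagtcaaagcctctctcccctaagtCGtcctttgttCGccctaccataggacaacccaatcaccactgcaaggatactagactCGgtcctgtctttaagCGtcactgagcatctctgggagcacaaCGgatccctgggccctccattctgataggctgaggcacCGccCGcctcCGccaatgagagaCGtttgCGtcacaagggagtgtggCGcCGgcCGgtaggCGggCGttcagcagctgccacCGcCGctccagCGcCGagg
Dnajb12: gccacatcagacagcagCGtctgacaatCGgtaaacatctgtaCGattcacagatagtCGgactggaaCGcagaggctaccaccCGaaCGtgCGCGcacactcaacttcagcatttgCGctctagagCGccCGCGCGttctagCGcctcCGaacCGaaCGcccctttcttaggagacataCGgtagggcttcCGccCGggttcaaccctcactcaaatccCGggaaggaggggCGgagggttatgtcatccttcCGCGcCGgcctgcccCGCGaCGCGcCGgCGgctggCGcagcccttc

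In the Dnajb13 window none of the searched motifs was found apart from CCAAT, which 37.4% of all windows held on either strand. The A-MYB site GGCAGTT, read by a transcription factor of pachytene spermatocytes, was in 4.12% of all windows and, among the members, in those of Dnajc24 and Dnajc7. The RFX half-site GTTGCCA was in 4.38% of all windows and in those of Dnajc10 and Dnajc7. The cAMP response element TGACGTCA was in 1.79% of all windows and, among the members, in that of Dnajc27. Both strands were searched for these exact letters, so sites that differ from them by a base were not counted. A match is a description of these letters only.

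Compared as lists, the mean log2 level of the tested testis-enriched members was above that of the widely expressed ones in 3 of 4 control libraries and in 1 of 4 cKO libraries. The median log2 fold change was -0.46 over the 3 testis-enriched members tested and -0.04 over the 35 widely expressed members, a difference of -0.42. In each library, the mean log2 level of the 3 minus that of the 35 was 0.46, 0.13, 0.40 and -0.09 in control libraries 1 to 4 and 0.02, -0.17, -0.35 and -0.33 in cKO libraries 1 to 4. Control library 4 lay within the range of the cKO, so the groups overlapped, at 0.22 ± 0.26 (SD, n = 4) and -0.21 ± 0.17 (SD, n = 4). The median of the 3 was the value of Dnajb3, and the difference was -0.18 without control library 1 and -0.72 without control library 4. It was -0.12 when the filter on low levels was relaxed or dropped, which let in genes that were hardly detected. No test was made of this difference, since the members were chosen with results of these data known. In whole testes, fewer cells of a type and less RNA per cell cannot be told apart.

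**Figure D4:**
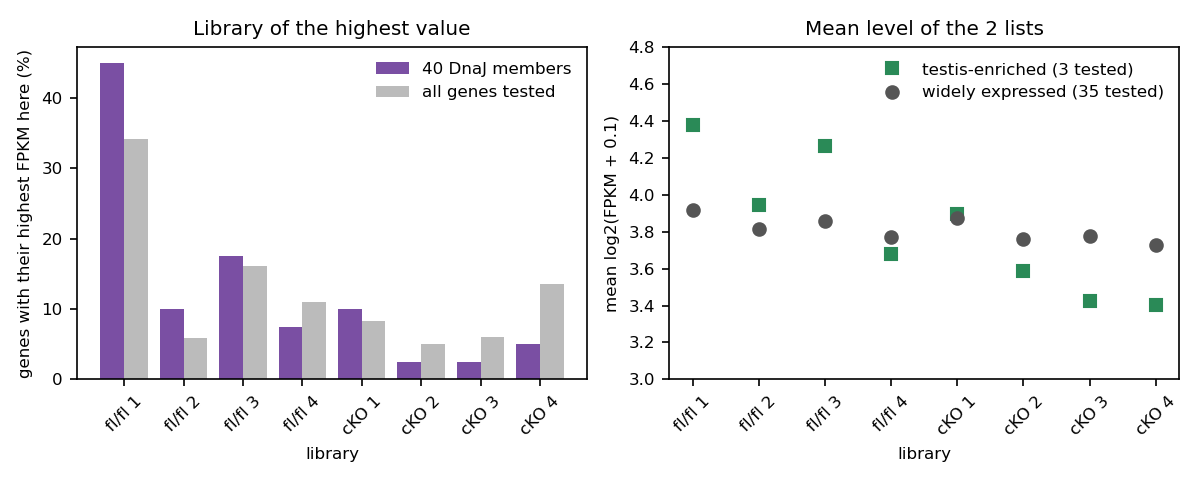
Left, the percentage of the 40 tested DnaJ members (purple) and of all genes tested (grey) that have their highest FPKM in each library; right, the mean log2(FPKM + 0.1) of the 3 tested testis-enriched and the 35 widely expressed members in each library (the axis starts at 3). Control library 1 holds the highest value of 18 members and of 34.2% of all genes tested. The testis-enriched mean varies far more between libraries than the widely expressed mean. A mean over 3 genes follows single members more closely than a mean over 35, and Dnajb3 alone spans 22.5 to 89.4 FPKM in the controls.

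Markers of the cell types in the testis were set beside these differences. The mean log2 level of the 5 tested spermatocyte markers was 6.80, 6.70, 6.89 and 6.57 in control libraries 1 to 4. It was 6.94, 6.49, 6.58 and 6.33 in cKO libraries 1 to 4. The highest of all libraries was thus cKO library 1, and the other cKO libraries were near or below the lowest control. Piwil1 was the 1 marker of this list with an unadjusted p below 0.05, with a lower level in the cKO. Of the spermatogonial markers, Stra8 was at 10.8 ± 7.05 FPKM (SD, n = 4) in the controls and 3.40 ± 1.17 FPKM (SD, n = 4) in the cKO. Its groups overlapped, at 4.53 to 19.8 and 2.03 to 4.70 FPKM, with an unadjusted p of 0.00735 and an adjusted p of 0.280 (limma). The other markers of that list went the other way, with log2 fold changes of 0.08 (Zbtb16), 0.31 (Gfra1), 0.04 (Kit), 0.15 (Dmrt1) and 0.35 (Uchl1). All 18 somatic markers tested had a fold change above 0, where 52.0% of all genes tested did. Of these markers 6 (Acta2, Csf1r, Mrc1, Pecam1, Cdh5 and Hsd3b1) had an unadjusted p below 0.05, although none passed after adjustment. Over all genes tested, 5.89% were higher in the cKO at such a p. Summed levels in the controls and the cKO were 962 to 1304 and 1287 to 1524 FPKM for 6 Sertoli markers, 15.6 to 33.2 and 25.2 to 41.0 FPKM for 5 Leydig markers, and 42.7 to 73.1 and 71.6 to 101 FPKM for 3 peritubular markers. They were 9.94 to 13.8 and 13.1 to 16.5 FPKM for 4 macrophage markers, 6.07 to 11.4 and 11.1 to 14.4 FPKM for 4 endothelial markers, and 173 to 223 and 214 to 223 FPKM for 6 spermatogonial markers. With each library centred on the spermatocyte markers, the log2 fold change of Dnajb13 was -0.69 while the median of all genes tested was 0.17. The part of these markers in the differences of DnaJ genes was not tested otherwise. Control library 1 held the highest value of 18 of the 40 tested members, where it held that of 34.2% of all genes tested. It held the lowest value of 9 members, and that of 23.6% of all genes tested.

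The cytosolic and nuclear members of subfamilies A and B are the general Hsp70 partners in protein folding. Of 8 members, all tested, 0 were called and 1 had an unadjusted p below 0.05, against 10.9% of all genes tested. Their median log2 fold change was -0.09. Dnaja2, the most abundant member of the family, had 89.4, 82.3, 83.2 and 73.9 FPKM in control libraries 1 to 4 and 92.4, 80.4, 78.5 and 80.5 FPKM in cKO libraries 1 to 4. The means of 82.2 ± 6.39 and 82.9 ± 6.36 FPKM (SD, n = 4 each) differed by less than either spread, with a log2 fold change of 0.01 and an adjusted p of 0.973 (limma). Dnaja1, which works with HSPA8 on many clients, had 36.5, 29.2, 34.0 and 27.6 FPKM in control libraries 1 to 4 and 31.0, 28.4, 27.7 and 26.8 FPKM in cKO libraries 1 to 4. The groups overlapped, with an adjusted p of 0.689 (limma). Both are class A proteins, and neither differed beyond its spread. Dnajb1, the main heat-inducible Hsp40, had 27.2 ± 5.52 FPKM (SD, n = 4) in the controls and 26.3 ± 2.07 FPKM (SD, n = 4) in the cKO.

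Dnajb6 encodes a suppressor of aggregation of polyglutamine proteins. Its level was 30.8, 25.6, 26.8 and 25.3 FPKM in control libraries 1 to 4, and 25.1, 23.0, 22.6 and 23.0 FPKM in cKO libraries 1 to 4. Every control library was above every cKO library, although control library 4 and cKO library 1 were close. The log2 fold change of -0.21 (SE 0.0967) had an unadjusted p of 0.0573 and an adjusted p of 0.482 (limma). Of its transcript, 39.5% consisted of 75-base runs that also occurred in another gene's transcript, most often the pseudogene Gm2541. How many of its fragments this touched was not tested.

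Dnajb6 was also the single member of the 37 whose promoter window held a heat shock element of 3 units, the binding site of heat shock factors (GAANNTTCNNGAA or TTCNNGAANNTTC). That motif was in 0.603% of all windows. It is shown in capitals in the window chr5:29735648-29735947 (plus strand), where it lies 46 to 34 bases before the start.
Dnajb6: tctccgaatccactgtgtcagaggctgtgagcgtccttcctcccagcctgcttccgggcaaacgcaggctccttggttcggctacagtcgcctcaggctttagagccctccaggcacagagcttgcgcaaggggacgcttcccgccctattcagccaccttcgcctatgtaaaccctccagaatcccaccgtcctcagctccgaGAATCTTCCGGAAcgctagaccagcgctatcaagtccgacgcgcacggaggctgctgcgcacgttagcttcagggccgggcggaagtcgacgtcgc
The window of a second start nearby held the same element.

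Dnajb4, a class B protein induced by heat, had 8.79, 6.62, 7.89 and 7.49 FPKM in control libraries 1 to 4 and 6.63, 6.32, 6.42 and 6.48 FPKM in cKO libraries 1 to 4. Control library 2 lay inside the narrow range of the cKO. The log2 fold change was -0.24 (SE 0.106), with an unadjusted p of 0.0460 and an adjusted p of 0.450 (limma), and it was -0.18 with an unadjusted p of 0.0870 without control library 1. Dnajb2, whose product carries ubiquitin-interacting motifs and sorts clients to the proteasome, had 22.4, 19.3, 21.0 and 16.4 FPKM in control libraries 1 to 4 and 18.2, 16.6, 14.99 and 16.2 FPKM in cKO libraries 1 to 4. Control library 4 lay within the cKO range, and the adjusted p was 0.482 (limma). Dnaja4 had the highest fold change of the group (0.30, adjusted p 0.633, limma), and 44.1% of its exon bases lay opposite those of Wdr61. Dnajb5, known mainly from heart and brain, was low at 1.75 and 1.74 FPKM.

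Members of the endoplasmic reticulum act in folding and in the disposal of misfolded proteins, some in the lumen with HSPA5 (BiP) and others in its membrane with the J-domain towards the cytosol. Of 9 members, all tested, 0 were called, and the median log2 fold change was -0.04. An unadjusted p below 0.05 was met by 1 of them, against 10.9% of all genes tested. That gene was Dnajb12, which encodes a membrane-bound J-protein that faces the cytosol and takes part in degradation of membrane proteins. Its level was 6.61, 8.73, 8.91 and 9.07 FPKM in control libraries 1 to 4 and 9.51, 10.2, 11.0 and 12.04 FPKM in cKO libraries 1 to 4. Every cKO library was above every control library, and control library 1 was below the other controls. The log2 fold change of 0.36 (SE 0.128), a 1.29-fold higher level in the cKO, had an unadjusted p of 0.0179 and an adjusted p of 0.350 (limma). It was 0.26 without control library 1.

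Dnajc10, a disulfide reductase known as ERdj5, had 46.6, 39.6, 41.4 and 35.2 FPKM in control libraries 1 to 4 and 42.4, 33.3, 31.6 and 31.3 FPKM in cKO libraries 1 to 4. The groups overlapped, with a log2 fold change of -0.24 and an adjusted p of 0.567 (limma). Dnajb11, or ERdj3, which binds nascent secretory proteins, had 45.4, 30.8, 32.6 and 29.7 FPKM in control libraries 1 to 4 and 38.3, 33.0, 31.1 and 31.3 FPKM in cKO libraries 1 to 4. Apart from control library 1 and cKO library 1, its libraries lay between 29.7 and 33.0 FPKM, and the adjusted p was 0.954 (limma). Dnajc3, or P58IPK, which also restrains the kinase PERK, had 48.1, 29.1, 34.5 and 29.4 FPKM in control libraries 1 to 4 and 35.3, 26.2, 27.7 and 22.5 FPKM in cKO libraries 1 to 4. Its groups overlapped, with a log2 fold change of -0.32 and an adjusted p of 0.584 (limma), and the fold change was -0.16 without control library 1. In these 3 genes control library 1 was the highest of the 8.

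Dnajc3 was the single member of the 37 with an endoplasmic reticulum stress element (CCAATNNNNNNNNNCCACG, read by ATF6 with NF-Y) in its window, where 0.119% of all windows held one. The element overlaps the CCAAT box and lies 105 to 87 bases before the start. It is shown in capitals in the window chr14:118937682-118937981 (plus strand).
Dnajc3: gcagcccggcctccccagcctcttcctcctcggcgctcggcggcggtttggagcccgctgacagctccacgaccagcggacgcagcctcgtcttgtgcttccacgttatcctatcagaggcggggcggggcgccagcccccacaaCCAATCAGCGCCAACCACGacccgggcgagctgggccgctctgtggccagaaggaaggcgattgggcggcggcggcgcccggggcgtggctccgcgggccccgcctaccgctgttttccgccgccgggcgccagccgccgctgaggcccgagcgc
The remaining members of this compartment lay close together in the groups, among them Dnajb9 (ERdj4), which takes part in degradation of misfolded proteins, at 22.6 and 22.1 FPKM, and Dnajb14, a relative of Dnajb12, at 2.31 and 2.22 FPKM. Dnajc16 had 11.9 and 12.4 FPKM, Dnajc18 had 7.11 and 7.03 FPKM, and Dnajc1, a membrane protein that binds ribosomes, had 4.87 and 4.64 FPKM.

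The mitochondrial members include parts of the protein import motor and of the cristae. Of 7 members, all tested, 0 were called and 0 had an unadjusted p below 0.05, against 10.9% of all genes tested. Their median log2 fold change was 0.07. Dnajc11, a partner of the complex that shapes cristae, had 8.35, 7.88, 7.53 and 6.78 FPKM in control libraries 1 to 4 and 8.47, 8.59, 8.38 and 8.64 FPKM in cKO libraries 1 to 4. The cKO libraries were nearly level and all above the controls, the nearest pair being cKO library 3 and control library 1. The log2 fold change of 0.16 (SE 0.0954) had an unadjusted p of 0.124 and an adjusted p of 0.598 (limma). Dnaja3 (Tid1), which helps HSPA9 in the matrix, had 18.4 ± 0.484 FPKM (SD, n = 4) in the controls and 19.4 ± 0.858 FPKM (SD, n = 4) in the cKO. The import motor subunits Dnajc15 and Dnajc19 had log2 fold changes of -0.01 and 0.10. Dnajc4 had 22.4 and 21.1 FPKM, and Dnajc28 had 6.34 and 5.54 FPKM. For Dnajc30, an assembly factor of the respiratory chain, 26.2% of the exon bases lay opposite Bud23.

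The members listed under ribosome, translation and RNA processing also included Dnajc9, which is a histone co-chaperone. Their median log2 fold change, at -0.21, was the lowest among the roles of widely expressed genes with over 1 member. This order rested on control library 1: without it the median was -0.10, the same as for the cytosolic and nuclear members. Of these 6 members, all tested, 0 were called and 1 had an unadjusted p below 0.05, against 10.9% of all genes tested. A fold change below 0 was seen in 5 of them, where 52.0% of all genes tested were above 0. Dnajc2, the ribosome-associated co-chaperone also called zuotin or MPP11, had 36.8, 27.2, 31.4 and 30.1 FPKM in control libraries 1 to 4 and 30.6, 25.4, 23.7 and 23.4 FPKM in cKO libraries 1 to 4. Control library 2 was below cKO library 1. The log2 fold change of -0.28 (SE 0.126) had an unadjusted p of 0.0494 and an adjusted p of 0.458 (limma), and it was -0.20 with an unadjusted p of 0.0983 without control library 1.

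Dnajc8, a protein associated with the spliceosome, had 35.6, 47.1, 45.8 and 49.9 FPKM in control libraries 1 to 4 and 47.2, 48.0, 49.0 and 44.7 FPKM in cKO libraries 1 to 4. Apart from control library 1, the lowest of the 8, its libraries lay between 44.7 and 49.9 FPKM, and the unadjusted p was 0.455 (limma). Dnajc24, which takes part in the synthesis of diphthamide on elongation factor 2, had 14.4, 11.6, 10.8 and 12.3 FPKM in control libraries 1 to 4 and 11.6, 9.29, 10.5 and 10.5 FPKM in cKO libraries 1 to 4. The groups overlapped, with a log2 fold change of -0.22 and an adjusted p of 0.540 (limma). Dnajc21, a factor of ribosome maturation, had a log2 fold change of -0.31 (adjusted p 0.591, limma) and Dnajc9, a histone co-chaperone, of -0.19 (adjusted p 0.654, limma). Without control library 1 these values were -0.16 for Dnajc21 and -0.06 for Dnajc9. The highest of the 8 libraries was control library 1 for Dnajc2, Dnajc21, Dnajc24 and Dnajc9. Dnajc17, a splicing-related protein, had 9.51 and 9.25 FPKM.

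Among the remaining members, Dnajc7, which carries TPR repeats and passes clients between Hsp70 and Hsp90, had 59.5, 47.7, 49.0 and 51.1 FPKM in control libraries 1 to 4 and 48.1, 50.3, 47.3 and 48.5 FPKM in cKO libraries 1 to 4. Apart from control library 1 its libraries lay between 47.3 and 51.1 FPKM, and the adjusted p was 0.806 (limma). Dnajc27, a Rab-like GTPase with a J-domain, had 19.6, 17.0, 18.2 and 14.8 FPKM in control libraries 1 to 4 and 16.6, 14.98, 14.6 and 13.5 FPKM in cKO libraries 1 to 4. Its groups overlapped, with a log2 fold change of -0.22 and an adjusted p of 0.543 (limma). Of the vesicle members, Dnajc5, the ubiquitous cysteine string protein, had 20.4 and 21.4 FPKM, and Dnajc13, an endosomal protein, had 11.4 and 11.1 FPKM. Dnajc14, a membrane protein, had 10.2 and 9.93 FPKM, Dnajc25 had 3.96 and 4.01 FPKM, and Dnajc12, a co-chaperone of aromatic amino acid hydroxylases, had 1.95 and 2.15 FPKM. The uncoating factor Dnajc6 (auxilin, known mainly from neurons) and Dnajc22 were below 1 FPKM in both groups and were not tested.

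Reads of some members could belong to other genes. The longest protein-coding transcript of each member was searched for 75-base runs found in another gene's transcripts. By this measure, 25 of the 45 members shared none with another gene, and 9 shared more than 10%. Since 0 shared any with another member, these transcripts could be told apart from each other. Exons outside them were not searched. Dnajc1, without a shared run, had 6.43% of its exon bases opposite Mllt10, a gene at 47.5 FPKM. Dnaja3, also without one, shared 4.09% with Vasn on the same strand. The highest share was that of Dnaja4, at 51.5%, all of it with Wdr61. Dnaja1 shared 26.2%, most often with the pseudogene Gm15542.

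The other genes of the Hsp70 cycle were compared as well. Of 32 partner genes (Hsp70 proteins, nucleotide exchange factors, further regulators and J-domain genes outside the naming rule), 31 were tested and 0 were called. Their median log2 fold change was -0.10, against 0.01 over all genes tested. An unadjusted p below 0.05 was met by 1 of them, against 10.9% of all genes tested. The gene with that p was Hsph1, an Hsp110 that releases ADP from Hsp70, with 21.6, 13.1, 15.5 and 13.8 FPKM in control libraries 1 to 4 and 11.7, 12.1, 11.9 and 10.5 FPKM in cKO libraries 1 to 4. Every control library was above every cKO library, as in 2.59% of all genes tested. The log2 fold change was -0.44 (SE 0.152), with an unadjusted p of 0.0157 and an adjusted p of 0.341 (limma). Control library 1 was far above the other controls, and without it the fold change was -0.29.

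The most abundant partner was Hspa2, the Hsp70 of spermatocytes, at 389 ± 84.9 FPKM (SD, n = 4) in the controls and 313 ± 62.0 FPKM (SD, n = 4) in the cKO, with an adjusted p of 0.664 (limma). Next came the constitutive Hspa8 at 188 and 208 FPKM, Hspa5 of the endoplasmic reticulum at 141 and 123 FPKM, and the exchange factor Bag1 at 131 and 120 FPKM. They were followed by Bag6, a chaperone of membrane and nuclear proteins, at 96.2 and 98.0 FPKM and by the mitochondrial Hspa9 at 94.8 and 87.6 FPKM. The Hsp70 of each compartment was thus more abundant than any DnaJ member listed for that compartment.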

How the data were processed

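RNA was taken from whole testes of 4 mice a group, and per the labels libraries were made with a SMARTer kit. The authors deposited FPKM per gene, normalized with a provider's software on GRCm38 (mm10). The aligner and counter are not given in the sources used here, nor is whether strand was used. 1 series table and 8 single-sample copies held the same values. Values were whole fragments in 100% of cases (tolerance 0.02), after multiplication by each gene's length and division by a step fitted for each library.

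limma 3.58.1 (R 4.3.3) was run on log2(FPKM + 0.1) over protein-coding genes whose group means both exceeded 1 FPKM, with a mean trend and Benjamini-Hochberg adjustment. The pseudocount understates differences of low genes. A gene was called at an adjusted p under 0.05 with a log2 fold change beyond 1 either way. The fit was tested on simulated data without a deviating library and with changes larger than that of any member. That run therefore does not show how well the fit finds differences of the size seen here. Named were the testis-enriched members, the 8 most abundant, the 8 with the smallest p, those without overlap, the 6 most abundant partners and partners at an unadjusted p below 0.05; others are named only by role. The members and lists were chosen with earlier results of these data known. Promoter windows came from RefSeq (GRCm38.p6).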

Additional observations from a re-analysis of the deposited data

Results flagged for a closer look

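In 3 of 42 groups of 4 libraries examined, 1 library lay apart from the other 3 beyond the 95% critical value of Dixon's test, where chance gives about 1 in 20. Dnaja2, the most abundant member, had 92.4 FPKM in cKO library 1 against 78.5 to 80.5 FPKM in the other cKO libraries. Dnajb12 had 6.61 FPKM in control library 1 against 8.73 to 9.07 FPKM in the other controls. Dnajc5b had 0.0508 FPKM, which is 1 fragment, in control library 3 and was at 0 in the other controls. With all other controls at 0, any fragment in 1 library would have been flagged, so this flag carries no information.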

How the results depend on the processing

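In every setting run, 0 members were called. The number of members with an unadjusted p below 0.05 was 4 as reported (10.9% of all genes tested had such a p). It was 2 with a filter at 5 FPKM (6.25% of members against 8.93% of genes), 2 without the mean trend (5% against 10.7%) and 9 with array weights (22.5% against 20.9%). Leaving out 1 library gave 1 (without cKO library 4, 2.5% against 5.65%) to 9 (without cKO library 1, 22.5% against 12.8%). It was 10 with a replicate block (25% against 14.6%, 9 of them lower in the cKO), and the partner count was 2 in that paired fit. Libraries of the same number were not taken as paired in the main fit, and the labels name no pairs. The correlations of their deviations were 0.29, 0.13, 0.08 and 0.41 for numbers 1 to 4, all above 0. The paper describes its controls as littermates, but which mice shared a litter is not given. Whether libraries of the same number belong together was not tested otherwise. Members without overlap numbered 4, and from 4 to 11 when 1 library was left out, the highest without cKO library 1, where 27.5% of members and 15.4% of genes did not overlap, against 10% and 6.24% with all libraries. The difference in median log2 fold change between testis-enriched and widely expressed members (-0.42) was -0.12 with a low filter and -0.12 without a filter, which admit members hardly detected, and ran from -0.72 to -0.18 when 1 library was left out. The partner count of 1 was 2 with voom on whole fragments, 3 with array weights, and 1 to 2 when 1 library was left out. The centring on spermatocyte markers was chosen after seeing the data. The cause of these shifts was not tested otherwise. Depth limits the members below 1 FPKM, which rest on 20 or fewer fragments a library.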
